A study of Mus musculus with 12 samples.

Results

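The lungs of obese db/db mice that were given an antibody against IL-17A and then exposed to O3 were compared with the lungs of db/db mice that were given an isotype control antibody and exposed to air. The comparison took 7 of the 12 arrays of the series, chosen by their labels: 3 of the anti-IL-17A O3 group (replicates 1, 2 and 4) and 4 of the isotype air group (replicates 1 to 4). The 4 arrays of another db/db group, which had the isotype antibody before O3, are set beside them, and 1 array of a wild-type mouse entered only the fit. All mice were females on the C57BL/6 background, bought at 6 weeks and kept for a further 4 weeks. The db/db mice carry a mutation that removes the long form of the leptin receptor in every tissue. The O3 groups breathed 2 ppm for 3 h, and RNA was prepared 24 h later from the left lungs by the labels, whereas the study's methods name the right lung for RNA. The dose and time of the antibody are not given in the sources used here. The air group received neither O3 nor anti-IL-17A, so exposure and antibody cannot be told apart between these groups. Whether each array stands for a separate mouse is not given in the labels, so p-values measure the spread between arrays, which may be partly technical.

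IL-17A is a cytokine made mainly by T helper 17 cells and gamma delta T cells. It binds a receptor of the IL-17RA and IL-17RC chains on epithelial and stromal cells, and signals through the adaptor Act1, the product of Traf3ip2, to raise cytokines, CXC chemokines that attract neutrophils, and antimicrobial proteins. Inhaled O3 is a strong oxidant that damages ciliated cells of the airways and is followed by inflammation and epithelial repair. Club cells, the secretory cells of the mouse airway, carry many of the enzymes that metabolise foreign compounds.

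No gene passed the test between anti-IL-17A O3 and air (limma, 21550 genes, Benjamini-Hochberg adjusted p under 0.05, 0% in either direction), and the smallest adjusted p was 0.143. At an unadjusted p under 0.05 there were 2338 higher genes (10.8%) and 1240 lower genes (5.75%). With anti-IL-17A replicate 2 left out, 1816 genes were called higher (8.43%) and 919 lower (4.26%). A two-sided exact permutation test of 3 arrays against 4 has 35 splits and cannot give a p under 0.0571, so that it makes no call on a single gene. The genes are therefore described by their arrays. A gene was counted as apart from air when all 3 anti-IL-17A arrays lay above, or all 3 below, every air array, and its gap is the distance on the log2 scale between the nearest arrays of both groups. On this count 1533 genes lay above air (7.11% of those tested) and 1056 below (4.90%). The counts given for gene lists below are, unless stated, in the deposited values and are to be read against these shares. A gap of at least 0.5 was found for 18 genes above (0.0835%) and 21 below (0.0974%), and a gap of at least 1 for 1 gene, Il6 (0.00464%), and for none below (0%). The balance of directions depends on the scale: 59.2% of the apart genes lay above air in the deposited values, 48.0% after quantile normalization of the gene table (1264 above, 1368 below) and 32.4% after subtraction of array medians (854 above, 1785 below). The median fold change of all genes was 0.04.

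The anti-IL-17A arrays did not move to the same extent. Replicate 2 was the array nearest to air for 1009 of the 1533 genes above and 676 of the 1056 below, and replicate 1 was the farthest for 1046 and 635. In 41 further genes replicates 1 and 4 lay at least 1 above every air array while replicate 2 lay within the air range, and in 56 further genes they lay at least 1 below. The same pattern with replicate 1 as the odd array was found for 0 genes in either direction, and with replicate 4 for 0 above and 1 below. Across genes, replicate 1 correlated with replicates 2 and 4 at 0.934 and 0.965, and replicate 2 with replicate 4 at 0.979, against 0.984 to 0.994 between air arrays.

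Markers of cells outside the airway and alveolus also differed between single arrays. Ucp1, the uncoupling protein of brown adipocytes, had a log2 signal of 10.53 in anti-IL-17A replicate 1, against 3.50 in replicate 2 and 3.53 in replicate 4. In air it was 10.12 in replicate 3 and 4.03, 4.03 and 3.82 in replicates 1, 2 and 4. Of 20 measured adipocyte genes, 16 were higher in anti-IL-17A replicate 1 and air replicate 3 than in each of the other 5 arrays, and the summed linear signal of the list was 7213.6 and 7169.9 in these arrays, against 2446.3 to 3013.3 in the others. Neutrophil markers followed other arrays. S100a8, a calcium-binding protein abundant in neutrophils, read 6.90, 10.33 and 7.22 in anti-IL-17A replicates 1, 2 and 4 and 10.30, 7.36, 8.16 and 10.40 in air replicates 1 to 4. Of 25 neutrophil genes, 18 were higher in anti-IL-17A replicate 2, air replicate 1 and air replicate 4 than in each of the other 4 arrays, with summed linear signals of 10275.5 to 12190.7 against 2378.2 to 4477.5. Acta1, skeletal muscle actin, was at 9.01 in air replicate 3 and at 4.75 to 5.26 in the other 6 arrays. The list of cardiac and skeletal muscle genes followed it in part. Of its 20 genes, 11 were higher in air replicate 3 than in each of the other 6 arrays. Its summed linear signal was 11693.4 in air replicate 3, against 5824.9 to 10241.5 in the others. The lowest log2 signal of any adipocyte, neutrophil or muscle marker was 3.05, at the dim end of the scale. A signal this dim does not show that the cells were present in an array. The part of these cells in the results below was not tested beyond the values given without the arrays concerned. In whole-lung RNA, fewer cells of a type and less RNA per cell cannot be told apart.

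Il6, which encodes the cytokine interleukin-6, stood farthest from air of all genes. Its log2 signal was 6.61, 5.25 and 6.91 in the anti-IL-17A O3 arrays and 4.15, 3.95, 3.82 and 3.43 in the air arrays. The lowest antibody-treated array, replicate 2, was 1.09 above the highest air array, and the fold change was 2.42 on the log2 scale (SE 0.39, adjusted p = 0.14 from limma) or 5.34-fold. Without replicate 2 the fold change was 2.92 (adjusted p = 0.0012), and without replicate 1 it was 2.24. Serpina3m, one of the mouse protease inhibitors related to antichymotrypsin, followed with 7.57, 6.57 and 7.94 in anti-IL-17A O3 and 5.80, 3.97, 4.86 and 5.31 in air. Serpina3f of the same family read 6.21, 5.77 and 6.20 in anti-IL-17A O3 and 5.24, 4.56, 4.53 and 4.86 in air. The gaps of Serpina3m and Serpina3f were 0.77 and 0.53, and their symbols come from the deposited table alone. Whether the probe sets of this family read one another was not tested.

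The other named genes of this group encode secreted signals, a structural protein of squamous epithelium and a protein of the nucleolus. Cxcl5, a chemokine that attracts neutrophils, read 5.01, 5.27 and 5.53 in anti-IL-17A O3 and 4.31, 3.72, 3.65 and 4.25 in air, a fold change of 1.29 (SE 0.22, adjusted p = 0.14). Its antibody-treated arrays were close together, with replicate 1 the lowest. Ivl, which encodes involucrin, a precursor of the cornified envelope, read 6.73, 5.76 and 6.08 against 5.02, 4.86, 4.88 and 4.77 in air. Pgf, placental growth factor, read 6.21, 5.44 and 6.44 against 4.75, 4.38, 4.70 and 4.36 in air. Tgfb2, transforming growth factor beta 2, read 8.51, 7.97 and 8.15 against 7.35, 7.28, 7.33 and 7.34 in air, where the arrays lay close together. Tnfaip6, a secreted hyaluronan-binding protein induced by TNF, read 5.39, 5.53 and 5.91 against 4.74, 3.43, 4.78 and 4.54 in air. Tnfsf9, the ligand of the T cell costimulatory receptor 4-1BB, read 5.07, 5.09 and 5.88 against 4.37, 4.46, 4.26 and 4.45 in air. Nhp2, a protein of the small nucleolar particles that modify ribosomal RNA, read 6.67, 6.10 and 6.97 against 5.43, 5.22, 5.42 and 5.38 in air. Plekho2, a pleckstrin homology domain protein, read 7.01, 6.04 and 6.51 against 5.23, 5.47, 5.50 and 5.35 in air. The 11 named genes among the 15 with the widest gaps had gaps of 0.53 to 1.09, fold changes of 0.88 to 2.42 and adjusted p of 0.143 to 0.214, and 9 of the 11 were called without replicate 2. The other 4 are 3 histone genes read by probe sets that match several genes and 1 gene without a name.

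**Figure D1:**
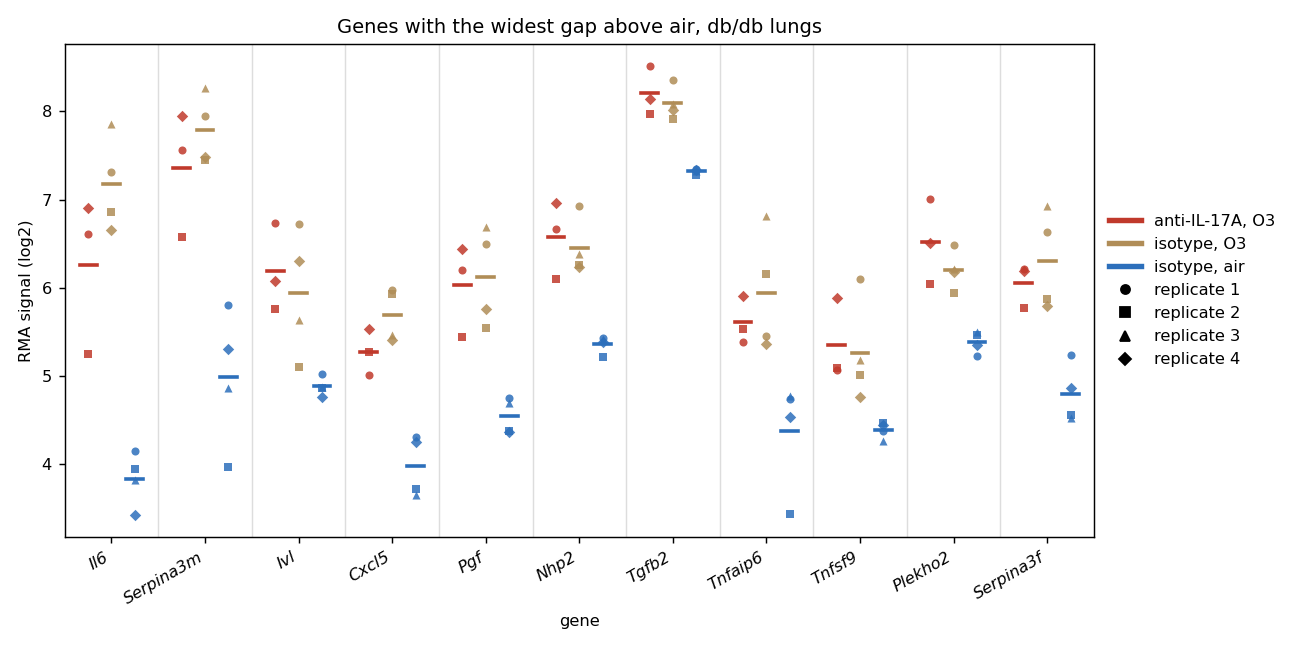
RMA signal on the log2 scale (y axis) of the 11 named genes with the widest gap above air (x axis), with 1 symbol per array, shaped by replicate number, and a bar at the mean of each group (anti-IL-17A O3, isotype O3 and air). Every anti-IL-17A O3 array lies above every air array, and for Il6 the lowest, replicate 2, is at 5.25 against 4.15 for the highest air array.

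The promoters of these genes are shown because activator protein 1 (AP-1), a dimer of Fos and Jun family proteins, binds the letters TGANTCA and acts in the induction of cytokines and proteases. Both strands were searched, and the letters are their own reverse complement. Of the 18 genes with a gap of at least 0.5 above air, 8 have a promoter in the RefSeq table (GRCm38.p6, 250 bases before to 50 after the start), and 3 of the 8, Il6, Ivl and Tnfaip6, hold these letters, against 8.97% of 27025 genes with a promoter. None of the 8 genes with a promoter among the 21 on the other side did. Over all genes apart above air the share was 7.28% of 1071, and over all genes apart below it was 10.9% of 603. The metal response element, TGCGCNC, was in none of the 8 leading promoters above air, in 29.2% of the 1071, in 22.2% of the 603 and in 17% of all. These shares were not corrected for base composition, and whether AP-1 acted on these genes here was not tested. The promoters of Il6 (chr5:30012864-30013163, plus strand), Ivl (chr3:92573686-92573985, minus strand) and Tnfaip6 (chr2:52037863-52038162, plus strand) read as follows, with the TGANTCA match in capitals. It begins 249, 116 and 142 bases before the start of transcription.
Il6: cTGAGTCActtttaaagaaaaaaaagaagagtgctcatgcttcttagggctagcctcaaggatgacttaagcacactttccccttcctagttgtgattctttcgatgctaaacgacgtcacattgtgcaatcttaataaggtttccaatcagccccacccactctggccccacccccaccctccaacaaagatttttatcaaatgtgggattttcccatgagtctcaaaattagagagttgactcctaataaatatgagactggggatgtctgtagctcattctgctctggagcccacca
Ivl: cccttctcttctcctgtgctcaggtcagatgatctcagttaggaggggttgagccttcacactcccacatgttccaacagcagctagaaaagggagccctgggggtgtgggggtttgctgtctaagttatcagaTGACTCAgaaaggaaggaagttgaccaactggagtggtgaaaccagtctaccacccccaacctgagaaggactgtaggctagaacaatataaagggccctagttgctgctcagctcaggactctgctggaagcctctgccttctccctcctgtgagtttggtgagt
Tnfaip6: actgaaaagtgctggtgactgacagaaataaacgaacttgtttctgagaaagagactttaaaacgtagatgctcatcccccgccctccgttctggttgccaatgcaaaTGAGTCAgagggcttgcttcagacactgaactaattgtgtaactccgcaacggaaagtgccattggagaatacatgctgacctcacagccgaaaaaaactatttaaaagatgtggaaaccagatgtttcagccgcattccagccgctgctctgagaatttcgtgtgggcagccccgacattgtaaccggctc

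Among 26 measured genes of IL-17 cytokines, receptors and signal mediators, 2 lay above air in all 3 arrays and 0 below, a share close to the 7.11% of all genes. The median fold change was 0.13, and it was 0.02 without replicate 1 and -0.02 without the arrays high in Ucp1. The ligand itself, Il17a, was near the dim end of the array scale, with 4.11, 3.82 and 3.51 in anti-IL-17A O3 and 3.30, 3.52, 3.42 and 3.52 in air, and replicate 4 overlapped with air. Il17ra, the receptor chain shared by several IL-17 cytokines, read 7.28, 7.23 and 6.88 against 6.95, 6.88, 6.15 and 6.81 in air, and its partner Il17rc read 5.03, 4.87 and 4.80 against 4.89, 5.16, 4.81 and 4.74. Both overlapped between the groups, with fold changes of 0.44 (SE 0.19, adjusted p = 0.29, and 0.25 without air replicate 3) and -0.0031 (SE 0.12, adjusted p = 0.99). Traf3ip2 read 7.29, 6.89 and 7.05 against 6.99, 6.82, 7.04 and 6.75 in air. The 2 list members apart from air were Il17re, the receptor chain for IL-17C, with a gap of 0.04, and Il1r1. The list holds Il1r1 although it is the receptor of interleukin-1 and not of an IL-17 cytokine. Il1r1 read 9.38, 9.49 and 9.42 in anti-IL-17A O3 and 9.19, 8.97, 8.77 and 9.05 in air.

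Of 34 measured genes known to be induced by IL-17A, 8 lay above air in all 3 arrays and 0 below, against 7.11% and 4.90% of all genes. After quantile normalization 6 lay above air and 0 below, and with array medians subtracted 5 and 1. The median fold change was 0.31 (0.13 without replicate 1 and 0.38 without replicate 2). The 8 were Il6, Cxcl5, Mmp3, Ccl2, Cxcl3, Timp1, Lcn2 and Areg. Timp1, the tissue inhibitor of metalloproteinases, had the largest fold change of these, 3.15 (SE 0.72, adjusted p = 0.16). It read 8.63, 8.0 and 9.43 in anti-IL-17A O3 and 7.93, 4.54, 4.90 and 4.80 in air, so that air replicate 1 alone nearly reached the antibody-treated arrays. Lcn2, the antimicrobial protein lipocalin-2, read 11.22, 9.94 and 10.98 against 9.90, 8.46, 9.42 and 8.89 in air, where again replicate 1 was the highest. Ccl2, which attracts monocytes, read 5.71, 6.06 and 5.97 against 5.50, 5.19, 5.02 and 4.48. Among the members that overlapped, Saa3, an acute phase protein of the lung, read 7.07, 9.61 and 7.50 against 9.17, 4.45, 4.15 and 4.82 in air. Anti-IL-17A replicate 2 and air replicate 1, which were high in neutrophil markers, were the highest of their group for Saa3, but air replicate 4, also high in these markers, was not (4.82).

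The neutrophil chemokines did not move as a group. Of 15 genes of these chemokines and the G-CSF axis, 2 lay above air (Cxcl5 and Cxcl3) and 1 below (Cxcr1, a receptor for them), with a median of 0.19 that was 0.02 without replicate 1 and -0.0084 without the arrays high in Ucp1. Cxcl1 read 5.74, 4.23 and 4.38 in anti-IL-17A O3 and 4.25, 4.87, 4.06 and 4.08 in air, and Cxcl2 read 6.46, 5.72 and 5.95 against 5.76, 6.64, 4.85 and 6.35. Their fold changes were 0.47 (SE 0.34) and 0.14 (SE 0.39), and replicate 1 alone was above air for Cxcl1. Among 27 other chemokines 3 lay above air and 0 below. Cxcl10, an interferon-inducible chemokine for T cells, read 8.08, 6.64 and 6.07 against 5.85, 5.48, 5.64 and 5.11 in air.

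In the list of the IL-6 family and acute phase response, 7 of 27 genes lay above air and 0 below, against 7.11% and 4.90% of all genes. The median fold change was 0.54 (0.32 without replicate 1 and 0.73 without replicate 2). Besides Il6 the genes above air were Osmr, the oncostatin M receptor, Serpina3n, Pim1, Il11, Lcn2 and Stat3, the transcription factor downstream of IL-6. The gaps of Pim1, Il11, Lcn2 and Stat3 were narrow, at 0.07, 0.04, 0.04 and 0.0069. After quantile normalization 6 genes of the list lay above air, and with array medians subtracted 4. Osmr read 10.07, 9.80 and 10.24 in anti-IL-17A O3 and 9.62, 9.29, 9.40 and 9.46 in air. Serpina3n, of the family of Serpina3m, read 10.97, 10.52 and 11.27 against 10.39, 8.74, 9.71 and 9.46. Socs3, the feedback inhibitor of IL-6 signalling, overlapped with air, at 8.87, 5.59 and 6.46 against 5.44, 5.77, 5.22 and 5.51. Stat3 and Socs3 are named after their values were seen. Of 20 genes of TNF and NF-kB feedback, 5 lay above air and 0 below, with a median of 0.41 (0.17 without replicate 1 and 0.56 without replicate 2). They were Tnfaip6, Tnfsf9, Tnfaip2, Tnf and Tnfrsf9.

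Ciliated cell genes had the most members below air of the 49 lists in the deposited values and after quantile normalization, while after subtraction of array medians club cell genes had 14 and ciliated cell genes 13. Of 23 measured, 13 lay below every air array and 0 above, against 4.90% below and 7.11% above of all genes. In 22 the fold change was below 0, and the median was -1.01 (-0.80 without replicate 1, -1.42 without replicate 2 and -0.82 without the arrays high in Ucp1). Without replicate 2, 17 of the 23 were called lower, against 4.26% of all genes. Hydin, a protein of the central pair of the cilium, read 5.45, 6.53 and 4.50 in anti-IL-17A O3 and 6.99, 7.24, 6.87 and 6.81 in air. Dnahc9, a heavy chain of the outer dynein arm, read 5.36, 6.21 and 5.02 against 6.66, 6.74, 6.54 and 6.47. Rsph4a, of the radial spoke head, had the largest fold change of the list, -2.39 (SE 0.76, adjusted p = 0.21, and -1.44 without replicate 1), and read 4.64, 8.68 and 6.32 against 8.90, 8.93, 9.16 and 8.77. Rsph4a was chosen after its values were seen. Rsph9, of the same structure, and the cilium assembly genes Ccdc40 and Dnaic2 had fold changes of -0.93, -0.54 and -0.45. For Hydin, Dnahc9, Rsph9 and Rsph4a replicate 2 was the array nearest to air, with a gap of 0.09 for Rsph4a. Over the list, the mean signal was 5.41, 6.67 and 5.38 in anti-IL-17A replicates 1, 2 and 4 and 6.74 to 6.92 in air. Foxj1, the master regulator of ciliated cells, did not follow the list. It read 5.12, 4.82 and 4.51 in anti-IL-17A O3 and 4.61, 4.83, 4.70 and 4.68 in air, and was chosen after its values were seen. The Foxj1 signals lay near the array medians of 4.75 to 4.90, and whether its probe set could show a fall was not tested. Ccdc108, a ciliary protein outside the list, was among the genes with the widest gaps, at 5.01, 5.37 and 4.47 against 6.47, 6.65, 6.29 and 6.03 in air.

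Club cell genes also lay below air, in 11 of 23 with 0 above, against 4.90% below and 7.11% above of all genes. Here the antibody-treated arrays were closer together. The list mean was 9.48, 9.71 and 9.43 in anti-IL-17A O3 and 10.03 to 10.30 in air, and the median fold change was -0.38 (-0.40 without replicate 1 and -0.44 without replicate 2). Scgb3a2, a secretoglobin, read 9.06, 9.80 and 8.53 in anti-IL-17A O3 and 10.14, 10.43, 10.06 and 10.28 in air. Aldh1a7, an aldehyde dehydrogenase, read 7.98, 8.93 and 8.55 against 9.51, 9.40, 9.52 and 9.42. Sult1d1, a sulfotransferase, had the largest difference of the list, at 6.15, 8.85 and 6.93 against 9.47, 9.22, 9.82 and 9.69, a fold change of -2.24 (SE 0.62, adjusted p = 0.19). Cyp2f2, the cytochrome P450 by which club cells activate naphthalene, read 11.79, 11.58 and 11.14 against 11.83, 11.94, 11.96 and 11.92, a gap of 0.03. Scgb1a1, the most abundant secretory protein of club cells, overlapped with air, at 10.94, 11.24 and 11.14 against 11.21, 11.43, 11.40 and 11.60, and was chosen after its values were seen.

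Enzymes that metabolise aldehydes, esters and foreign compounds were shared in part with the club cell list. Of 24, 9 lay below air and 1 above, with a median of -0.34 (-0.24 without replicate 1 and -0.19 without the arrays high in Ucp1). The carboxylesterases Ces1e and Ces1f read 5.34, 6.26 and 5.82 in anti-IL-17A O3 and 7.03, 6.83, 7.09 and 7.11 in air, and 4.49, 5.46 and 4.40 against 5.94, 5.98, 6.45 and 6.37. Ces1e, Ces1f and Ces1d are close relatives in sequence, and the array may read part of one in another. Aox1, aldehyde oxidase, read 6.85, 7.12 and 7.06 against 7.50, 7.79, 8.01 and 7.60. Of 22 cytochrome P450 genes, 4 lay below air and 0 above, with a median of -0.14 that was -0.01 without replicate 1, 0.01 without air replicate 3 and 0.03 without the arrays high in Ucp1. Cyp4a12b, a fatty acid hydroxylase, had the widest gap of them, at 4.98, 5.0 and 3.49 against 6.23, 6.05, 7.65 and 5.77. Air replicate 3, high in adipocyte markers and in Acta1, was the highest for this gene, and without the 3 arrays high in Ucp1 the fold change was -1.77.

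Genes of injured and transitional epithelium lay on the other side. Of 24, 7 lay above air and 0 below, 22 had a fold change above 0, and the median was 0.89 (0.54 without replicate 1 and 1.32 without replicate 2). Without replicate 2, 16 of the 24 were called higher, against 8.43% of all genes. The keratins of simple epithelia, Krt8 and its partner Krt18, read 10.70, 9.33 and 10.24 against 9.13, 9.04, 8.96 and 8.98 in air, and 10.15, 8.72 and 9.74 against 8.58, 8.46, 8.42 and 8.31. Lgals3, the lectin galectin-3, which macrophages also make, had the widest gap of the list, 0.45, and read 8.71, 8.18 and 8.77 against 7.71, 7.58, 7.50 and 7.73. The ligands of the EGF receptor Hbegf and Areg belong to this list and to that of the EGF receptor, in which 4 of 16 genes lay above air and 0 below. Hbegf read 9.04, 8.40 and 9.11 against 8.03, 7.44, 8.14 and 8.12, and Areg read 7.47, 6.47 and 7.92 against 5.87, 6.09, 6.15 and 6.43. The other members apart were Spry4 and Dusp6, feedback inhibitors of the MAP kinases, both highest in replicate 1 (7.54 and 8.04) and nearest to air in replicate 2 (5.20 and 6.50).

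Alveolar genes lay apart from air in both directions. Of 20 genes of type 2 cells 1 lay above air and 2 below, and of 17 genes of type 1 cells 1 lay above and 4 below, where 7.11% of all genes lay above and 4.90% below. The medians were -0.02 and 0.02 and turned sign with single arrays left out. Rtkn2, a gene of type 1 cells, had the widest gap among these, at 6.00, 9.50 and 8.19 in anti-IL-17A O3 and 9.78, 9.84, 9.81 and 9.87 in air. Sftpc, surfactant protein C, read 11.40, 11.73 and 11.62, against no less than 11.77 in any air array.

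**Figure D2:**
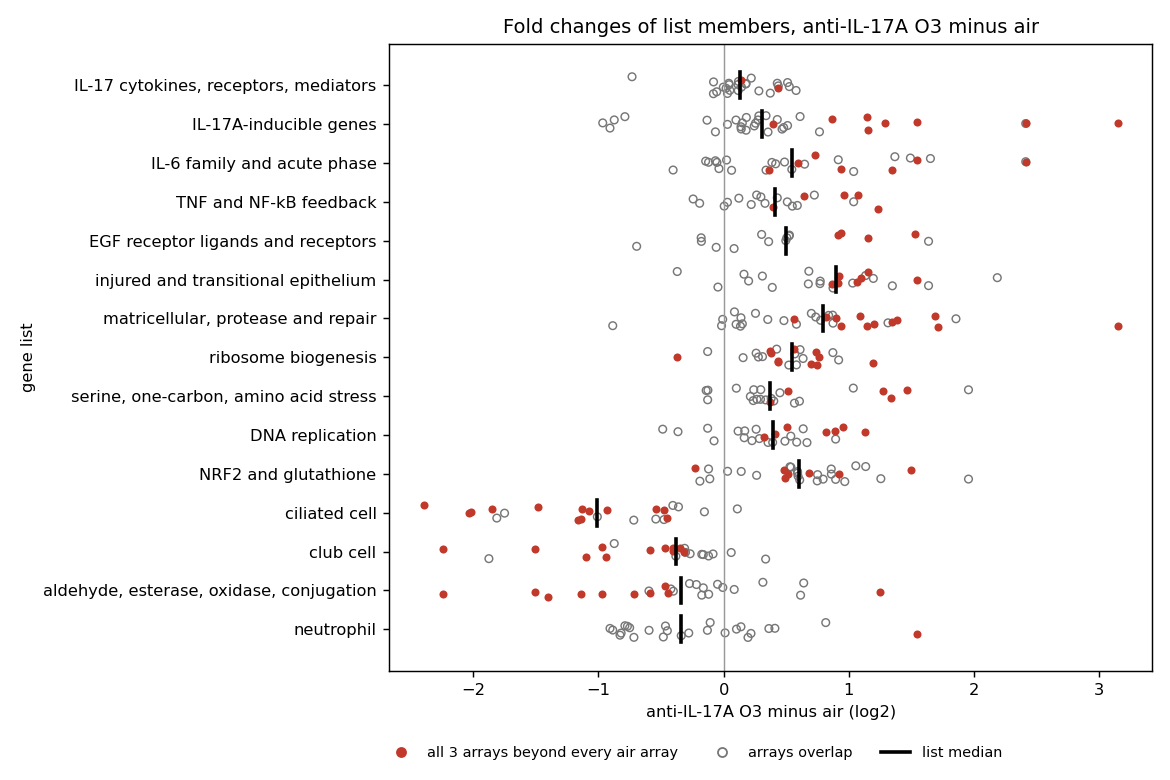
Fold change of each measured member, anti-IL-17A O3 minus air on the log2 scale (x axis), for 15 gene lists (y axis). Filled points are genes whose 3 anti-IL-17A arrays lie beyond every air array, open points overlap, and the black bar is the list median, which is -1.01 for ciliated cell genes and 0.89 for injured and transitional epithelium.

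Proteases, their inhibitors and matricellular proteins of wound repair lay above air in 12 of 32 genes and below in 0, against 7.11% and 4.90% of all genes. The median was 0.79 (0.50 without replicate 1 and 1.14 without replicate 2). Mmp3, stromelysin 1, read 7.14, 7.11 and 7.91 in anti-IL-17A O3 and 6.63, 5.97, 6.02 and 6.35 in air. Plau, the plasminogen activator urokinase, was also above air, at 6.58, 5.51 and 6.01 against 5.05, 4.79, 4.47 and 5.01. Thbs1, thrombospondin 1, read 10.77, 8.83 and 10.55 against 8.30, 8.30, 8.54 and 8.22. Spp1, osteopontin, read 10.40, 9.99 and 9.96 against 9.43, 9.42, 9.50 and 8.37. Mmp14, a membrane-bound collagenase, had a fold change of 1.38 (0.90 without replicate 1 and 1.85 without replicate 2). Of 22 collagens and laminins, 3 lay above air and 1 below.

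Genes of growth lay above air in several lists. Of 24 genes of ribosome biogenesis, 10 lay above air and 1, Npm1, below, with a median of 0.54 that was 0.52 without replicate 1 and 0.69 without replicate 2. After quantile normalization 7 lay above air and 1 below, and with array medians subtracted 6 and 1. The list mean was 7.43, 7.06 and 7.69 in anti-IL-17A O3 and 6.79 to 6.97 in air. Ddx21, a nucleolar helicase, read 8.01, 7.62 and 8.03 against 7.17, 6.77, 7.18 and 7.39. Npm1, nucleophosmin, read 10.55, 11.04 and 11.14 against 11.24, 11.34, 11.29 and 11.28. Myc, a transcription factor that drives these genes, read 9.32, 7.35 and 9.07 against 6.70, 7.03, 7.09 and 6.97 in air, a fold change of 1.63 (SE 0.40, adjusted p = 0.16). It was 1 of 3 genes above air among 21 immediate early genes, with Egr2 and Fosl2.

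Of 23 genes of serine, one-carbon and amino acid metabolism, 5 lay above air and 0 below. Mthfd2, the mitochondrial folate enzyme of dividing cells, read 7.74, 6.94 and 7.92 in anti-IL-17A O3 and 6.45, 5.86, 6.34 and 6.40 in air, and Psat1, of serine synthesis, read 7.53, 7.0 and 8.0 against 6.63, 5.37, 6.71 and 5.99. Of 25 genes of DNA replication, 7 lay above air and 0 below. The helicase subunits Mcm2 and Mcm3 read 6.48, 5.47 and 6.53 against 5.09, 4.97, 5.12 and 4.94, and 6.35, 6.26 and 7.18 against 5.70, 5.49, 5.53 and 5.86. Mitotic genes followed another order of arrays. All 25 had a fold change above 0, with a median of 0.40, but 1 lay above air in all 3 arrays. The list mean was 4.84, 6.40 and 5.45 in anti-IL-17A replicates 1, 2 and 4 and 4.93 to 5.65 in air. Replicate 2 was the highest here, and the median was 0.82 without replicate 1, 0.04 without replicate 2 and 0.60 without air replicate 1.

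Genes of the oxidant response under the transcription factor NRF2 lay above air in 6 of 30 and below in 1, with a median of 0.60 (0.39 without replicate 1 and 0.95 without replicate 2). Without replicate 2, 17 of the 30 were called higher, against 8.43% of all genes. Hmox1, heme oxygenase 1, read 10.44, 8.18 and 9.13 in anti-IL-17A O3 and 7.84, 7.68, 8.07 and 7.44 in air. Gsr, glutathione reductase, read 9.72, 9.15 and 9.06 against 8.95, 8.36, 8.47 and 8.75. Slc7a11, the cystine transporter, read 9.20, 5.31 and 7.27 against 5.10, 4.92, 5.71 and 5.50, with replicate 2 inside the air range, and was chosen after its values were seen. The metallothioneins, which bind zinc, overlapped with air through replicate 2 as well, which lay within the air range for Mt2 and below it for Mt1. Mt2 read 11.44, 8.69 and 11.13 against 8.82, 8.48, 9.20 and 7.76, and Mt1 read 9.66, 7.65 and 9.53 against 8.0, 8.57, 8.38 and 7.77. Slc39a8, a zinc importer, did lie above air in all 3 arrays, at 10.64, 10.43 and 10.48 against 10.14, 9.92, 9.97 and 10.11.

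**Figure D3:**
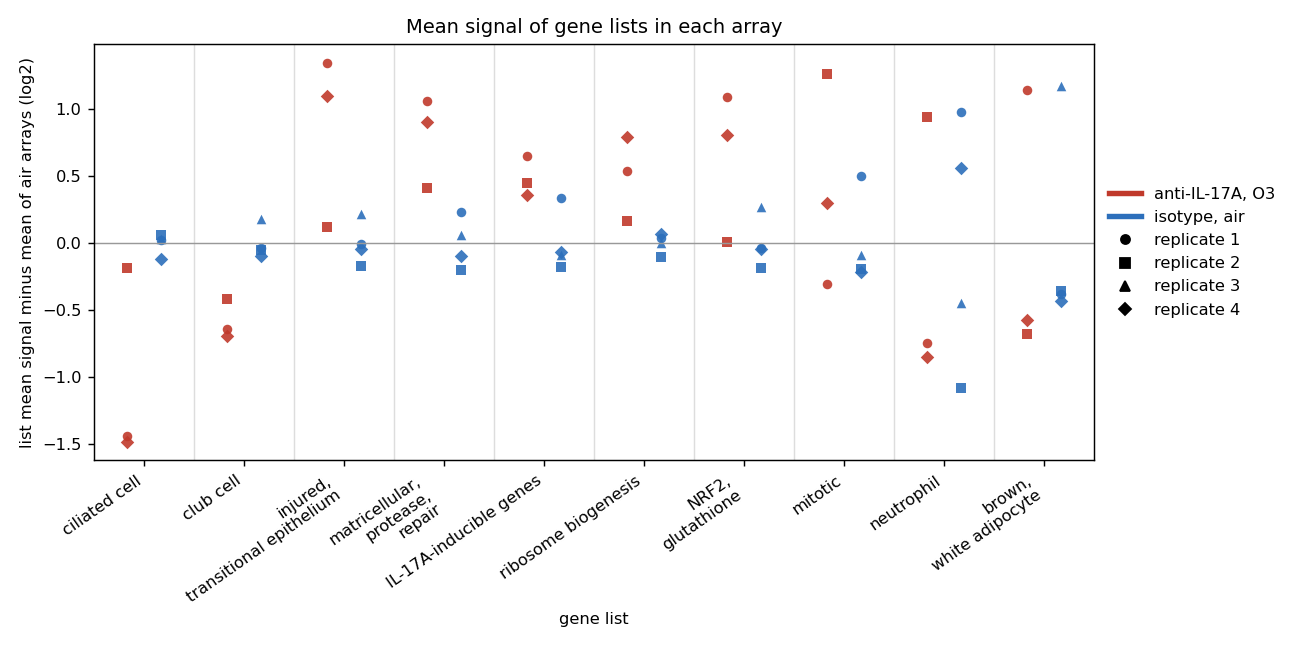
Mean log2 signal of 10 gene lists in each array, minus the mean of the 4 air arrays (y axis), by list (x axis), with 1 symbol per array shaped by replicate number. Anti-IL-17A replicate 2 is near the air arrays for ciliated cell and NRF2 genes (6.67 against 6.74 to 6.92 in air for ciliated cells) and the highest of all arrays for mitotic genes, and adipocyte genes are high in anti-IL-17A replicate 1 and air replicate 3.

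The remaining genes with the widest gaps below air are RNA genes and genes of little known function. Etohi1 read 4.02, 7.70 and 7.46 in anti-IL-17A O3 and 8.64, 8.38, 8.69 and 9.06 in air, with replicate 1 far below the rest. Gdap10 read 6.68, 7.92 and 8.28 against 9.14, 8.89, 9.19 and 9.14, and BC005685 read 7.09, 7.01 and 7.14 against 7.77, 8.14, 7.82 and 7.81. Dleu2, a long RNA that is the host of miR-15a and miR-16-1, read 2.50, 2.87 and 2.72 against 3.72, 3.46, 3.94 and 3.48, at the dim end of the scale. The microRNA genes Mir598 and Mir680-1 read 7.38, 7.41 and 7.67 against 8.23, 8.51, 8.33 and 8.25, and 3.37, 3.80 and 4.21 against 4.77, 5.04, 5.24 and 5.22. Mir680-2 lay below air too, at 5.93, 7.02 and 6.68 against 7.73, 8.12, 7.95 and 7.58, and is named, after its values were seen, because it shares its mature sequence with Mir680-1. These probe sets read the RNA of the gene and not the mature microRNA, which the array does not separate. The mature sequence of both Mir680 genes, on chromosomes 6 and X, is shown with its seed, bases 2 to 8, in capitals (RefSeq, GRCm38.p6).
mmu-miR-680: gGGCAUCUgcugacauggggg
The 9 named genes among the 15 with the widest gaps below air had gaps of 0.56 to 0.77, fold changes of -2.30 to -0.81 and adjusted p of 0.143 to 0.212, and 8 of the 9 were called without replicate 2. The other 6 are predicted genes, genes read by a probe set that matches several, or not reported here.

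**Figure D4:**
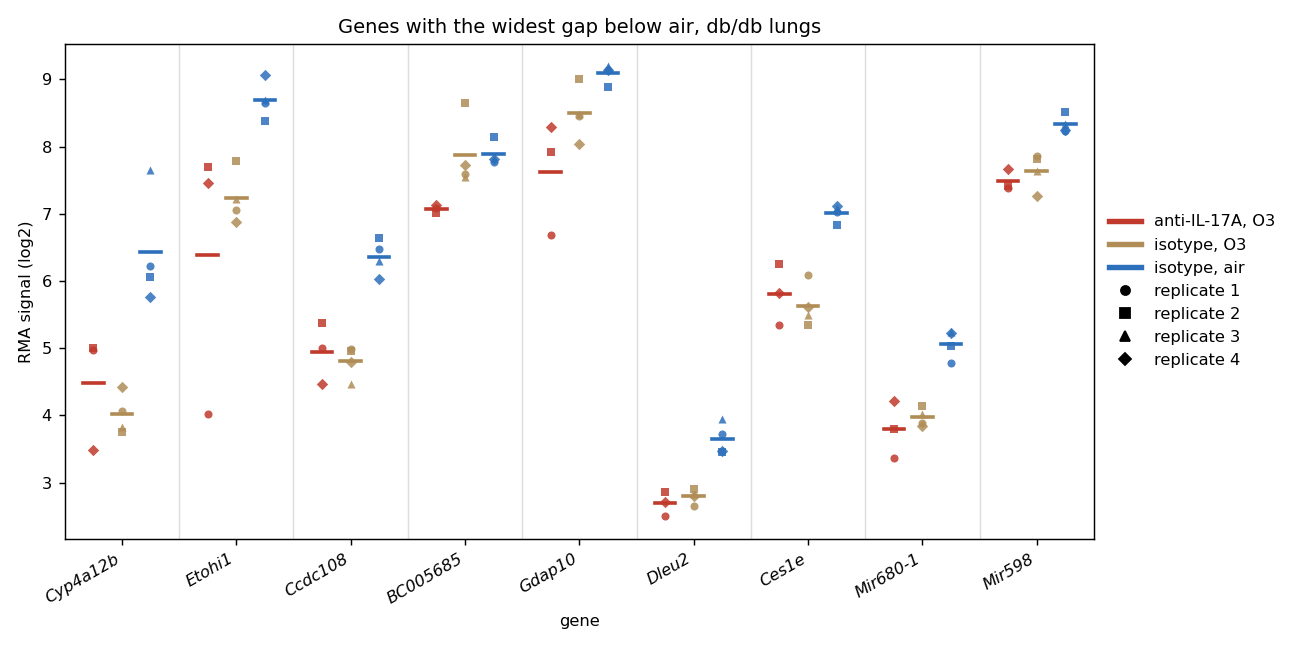
RMA signal on the log2 scale (y axis) of the 9 named genes with the widest gap below air (x axis), with 1 symbol per array, shaped by replicate number, and a bar at the mean of each group (anti-IL-17A O3, isotype O3 and air). Every anti-IL-17A O3 array lies below every air array, and for Ces1e the highest, replicate 2, is at 6.26 against 6.83 for the lowest air array.

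Among leukocytes, genes of monocytes and inflammatory macrophages lay above air in 6 of 23 and below in 0, with a median of 0.40 (0.49 without replicate 1 and 0.17 without replicate 2). Spp1, Lgals3 and Thbs1 were among them. Cd14, the lipopolysaccharide co-receptor, and Cd68, a lysosomal protein of macrophages, had fold changes of 0.65 and 0.61. Of 25 neutrophil genes 1 (Lcn2) lay above air and 0 below, and of 25 genes of T and NK cells 4 lay above and 0 below. Of 16 genes of B and plasma cells 0 lay apart in either direction. Interferon-stimulated genes lay above air in 2 of 26 (Cxcl10 and Mx1), close to the 7.11% of all genes, and below in 0. Their median was -0.04 and was 0.06 without replicate 1.

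The isotype O3 arrays differ from the anti-IL-17A O3 arrays in the antibody alone, by their labels, and between these groups no gene was called (limma, 0 of 21550, smallest adjusted p = 0.832), with 991 genes at an unadjusted p under 0.05 (4.60%). Both O3 groups are set against the same air arrays, so that their likeness is not independent. Il6 read 6.61, 5.25 and 6.91 in anti-IL-17A O3 and 7.31, 6.86, 7.86 and 6.66 in isotype O3, a difference of -0.92 with a 95% confidence interval from -1.79 to -0.05. Cxcl5 read 5.01, 5.27 and 5.53 against 5.97, 5.93, 5.46 and 5.41, a difference of -0.42 (interval -0.90 to 0.06). The groups overlapped for both genes. Over the 11 leading genes above air the difference between the O3 groups ran from -0.92 to 0.32, and over the 9 leading genes below from -0.87 to 0.47. For BC005685 the anti-IL-17A arrays, at 7.09, 7.01 and 7.14, lay below the isotype O3 arrays, at 7.59, 8.64, 7.55 and 7.72, as well as below air, with a difference of -0.80 (interval -1.31 to -0.29, adjusted p = 0.83). Aox1 had the same order, at 6.85, 7.12 and 7.06 against 7.34, 7.48, 7.43 and 7.46 in isotype O3. BC005685 and Aox1 were chosen here after their values were seen. The intervals are not adjusted for the number of genes. Of the 103 named genes, 9 have one that does not reach 0. The difference is below 0 for Il6, BC005685, Aox1, Gdap10 and Mir680-2 and above 0 for Il11, Il17a, Foxj1 and Lef1. Of the 103, 88 lie apart from air in the anti-IL-17A arrays, and most of these were named for it. The count of 9 is therefore drawn in part from the values that chose the genes, and is no independent result on the antibody. Over all genes 4.60% had an unadjusted p under 0.05 between the O3 groups (limma).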

How the data were processed

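Lung RNA of 12 samples was read on Affymetrix mouse gene arrays, 1 per sample. Per the labels, the authors made the values with oligo, RMA and limma, with no versions given. What was deposited are log2 RMA signals of 35556 probe sets, which RMA corrects for background, quantile-normalizes and summarises. Both deposited tables hold the same values (largest difference 0), and array medians lay between 4.75 and 4.90. Columns with the authors' own comparison of isotype O3 and air were not used. Of 25254 probe sets with a symbol, 374 whose symbol conflicted with the annotation of the array were left out, 2385 have their gene from the deposited table alone and 1858 match several genes. Each of 21550 genes was read by its brightest probe set, by mean signal in the 7 arrays compared, with no filter on dim genes, and 1314 of them by one that matches several genes. The number of arrays limits the precision.

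Limma (3.58.1, R 4.3.3; lmFit and eBayes, two-sided) was fitted to all 12 arrays with 1 mean per condition, 8 residual degrees of freedom and Benjamini-Hochberg adjustment over all genes, with calls at an adjusted p under 0.05. A fold change is a difference of group means on the log2 scale, anti-IL-17A O3 minus air. A simulation of this comparison was built from 21550 genes. Of its changed genes, 36% were called for a change of 0.5, 66% for 1, 92% for 2 and 98% for 3. There were 7 false calls among 21350 unchanged genes. These shares describe the simulation alone. In the measured arrays, Il6 at 2.42 and Timp1 at 3.15 were not called (limma, adjusted p of 0.143 and 0.158). There the 3 anti-IL-17A arrays did not move to the same extent. The shares therefore cannot tell how many changes of these sizes were missed here. The 49 gene lists hold 933 measured members and are described by counts and medians, with no test. Named are the 15 genes with the widest gap in each direction, up to 5 apart members of each list with the widest gap, members of the lists of IL-17 cytokines and receptors, IL-17A-inducible genes, metallothioneins, EGF receptor ligands and neutrophil chemokines, and adipocyte and muscle markers of single arrays. Genes outside this rule are marked where they appear. Genes read by probe sets of several genes and genes without a name are counted only, and some genes that the rule takes in are not reported here. The comparison, the lists and the rule were chosen with earlier results of these data known. Alternatives were array medians subtracted, quantile normalization of the gene table, the dimmest 40% of genes left out, other choices of probe set, each array left out, only the 7 arrays, no arrays high in Ucp1, the replicate number as a block, a trended and robust variance, array weights and other thresholds.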

Additional observations from a re-analysis of the deposited data

Results flagged for a closer look

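In 8 of the 103 named genes, 1 of the 4 air arrays lay so far from the other 3 that it passed Dixon's 95% criterion for an outlying value, which chance gives in about 1 of 20 groups. Air replicate 1 was high for Saa3 (9.17, against 4.15 to 4.82 in the other air arrays) and Timp1 (7.93, against 4.54 to 4.90). Air replicate 3 was high for Ucp1 (10.12, against 3.82 to 4.03) and Acta1 (9.01, against 5.15 to 5.26). Air replicate 2 was low for Hbegf (7.44, against 8.03 to 8.14) and Gdap10 (8.89, against 9.14 to 9.19) and high for BC005685 (8.14, against 7.77 to 7.82). Air replicate 4 was low for Spp1 (8.37, against 9.42 to 9.50). The groups of 3 anti-IL-17A arrays were not examined in this way.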

How the results depend on the processing

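The count of 0 called genes in either direction was also 0 with quantile normalization, array medians subtracted, the filter on dim genes, other probe set choices, the 3 arrays high in Ucp1 left out, only the 7 arrays, a trended and robust variance, the replicate block, and an adjusted p under 0.1. With 1 array left out of the 12 or of the 7, 0 to 1816 genes were called higher and 0 to 919 lower. The extremes are without anti-IL-17A O3 replicate 2 (896 and 505 with only the 7 arrays), of which 645 and 356 were among the apart genes. Without air replicate 1 there was 1 higher gene, and without anti-IL-17A replicate 4 there was 1 lower. Array weights gave 3428 and 2154 called genes. Weights on the 7 arrays gave 3751 and 2359, and weights gene by gene 225 and 178, both chosen after seeing the data. Their estimation over all genes stopped before it converged, and the weights were 4.93 for anti-IL-17A replicate 4, 0.379 for replicate 2 and 0.128 for replicate 1. The deviations of same-numbered arrays correlated at -0.175, -0.157 and 0.119, and those of other pairs at -0.297 to 0.269. With the replicate block 0 genes were called, as without it. With so few arrays these values cannot decide whether the replicate numbers pair the samples. The 1533 genes above air and 1056 below became 854 and 1785 with array medians subtracted, 3422 and 3139 without the arrays high in Ucp1, and 672 below without the dimmest 40%. With 1 array left out they ran from 1892 to 4368 and from 1310 to 3118, growing because fewer arrays have to lie apart. A gap of at least 1 was then found for 1 to 103 genes above (103 without anti-IL-17A replicate 2, 5 without air replicate 1) and 0 to 162 below (162 without anti-IL-17A replicate 2, 2 without replicate 4, 1 each without air replicate 3 or 4), for 1 below without the arrays high in Ucp1, and a gap of at least 0.5 for 18 and 21. Of 103 named genes, the 88 apart from air kept their direction in every alternative fit that held them (26, or 25 for genes among the dimmest 40%), and 5 others changed sign. Ucp1, at 0.35, ranged from -1.99 to 1.89 with 1 array left out, and was -0.45 without the arrays high in it, -1.33 with array weights, -1.30 with weights on the 7 arrays, -1.06 with weights gene by gene, -0.14 without air replicate 1 or 2 and -0.21 without air replicate 4. Cxcl1 ranged from -0.0128 to 0.74 with 1 array left out and was -0.10 without the arrays high in Ucp1. Cxcl2 ranged from -0.21 to 0.39 and was -0.42 without those arrays, -0.0071 with the replicate block and -0.0677 without anti-IL-17A replicate 1. Il17rc ranged from -0.0671 to 0.0844, and was 0.0127 without anti-IL-17A replicate 2 and 0.045 without replicate 4. Foxj1 ranged from -0.0434 to 0.26, and was -0.0435 without those arrays, -0.14 with array weights, -0.15 with weights on the 7 arrays and -0.0647 with weights gene by gene. The causes were not tested. Of 1274 list medians under the alternatives, 45 moved by more than the spread of the anti-IL-17A arrays. The arrays give no depth, and signals near 3 to 4 are at the dim end of the scale.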

Other observations

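Some further gene groups differed in how the anti-IL-17A arrays lay. In the list of glucocorticoid-induced genes, the mean log2 signal was 9.05, 7.47 and 8.52 in anti-IL-17A O3 replicates 1, 2 and 4 and 7.70 to 8.18 in air, so that replicate 2 lay below the air arrays and the others above. Of 20 genes 1 lay above air in all 3 arrays and 0 below, and the median fold change of 0.30 was -0.10 without replicate 1 and 0.80 without replicate 2. Of 21 genes of cholesterol synthesis, 4 lay above air and 1 below, with a median of 0.42. Hsd17b7, which encodes an enzyme of that pathway, read 7.93, 7.40 and 8.59 in anti-IL-17A O3 and 6.82, 6.26, 7.11 and 7.09 in air. Of 23 genes of glycolysis and the pentose phosphate pathway 22 had a fold change above 0, and 2 lay above air in all 3 arrays, close to the 7.11% of all genes. Of 27 genes of fatty acid synthesis and oxidation, 18 had a fold change above 0, and 0 lay apart in either direction. Their median was 0.26, and -0.0046 without replicate 1.

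In the circadian clock list 1 of 19 genes lay above air and 1 below, near the shares of all genes (7.11% and 4.90%). Nfil3, a repressor of clock output, read 9.46, 8.32 and 9.17 in anti-IL-17A O3 and 7.81, 8.0, 7.69 and 7.67 in air. Nr1d2, a nuclear receptor that represses Bmal1, read 7.85, 8.0 and 7.88 against 8.27, 8.57, 8.42 and 8.24. Among prostaglandin and leukotriene genes 2 of 24 lay above air and 2 below, against the same shares of all genes. Ptges, the inducible synthase of prostaglandin E2, read 7.76, 6.27 and 7.43 against 5.82, 6.14, 6.02 and 5.83, and Ptgfr, the receptor of prostaglandin F2 alpha, read 5.54, 6.34 and 6.10 against 6.63, 6.82, 7.14 and 7.0. Il4ra, the receptor chain shared by interleukin-4 and interleukin-13, read 9.53, 8.22 and 9.23 against 8.07, 8.09, 7.82 and 7.97. Of the T cell genes apart from air, the transcription factors Tcf7 and Lef1 were highest in replicate 1, at 7.05 and 7.11. They had 5.80 and 6.31 in replicate 2 and 5.83 and 6.40 in replicate 4, against 5.43 to 5.54 and 6.07 to 6.15 in air. The list of T and NK cell genes did not follow this order. Its mean was 5.58, 6.39 and 5.73 in anti-IL-17A replicates 1, 2 and 4 and 5.63 to 6.05 in air. Of its 25 fold changes 12 were below 0, with a median of 0.05. The limma adjusted p of the genes named here lay between 0.16 and 0.25.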
